A study of Mus musculus with 61 samples.

Results

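Liver gene expression of NZO mice was compared with that of strain-129 mice. All 8 libraries of each strain were taken by their labels, 16 of 60 liver RNA sequencing libraries. The 60 cover the 8 inbred founders of the Diversity Outbred mice, and the strain labelled by number alone is written strain-129. NZO is an inbred strain known for polygenic obesity with fatty liver and insulin resistance, and strain-129 is a classical inbred strain that resists obesity. The labels name no transgene, drug or surgery, and both groups, like the other 6 strains, had received a high-fat, high-sugar diet labelled as 45% fat. Each group is thus 1 inbred genotype on that diet, and no other diet was analysed here. Sex, age, body weight and time of collection are not in the labels, nor is it said that every library is another animal. A p-value here is set by the spread among libraries, part of which can be technical.

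In the fed liver, insulin and dietary sugar switch on the enzymes that build fatty acids and triglycerides, while low sterol switches on cholesterol synthesis and the LDL receptor. Fat that is not exported in lipoproteins or burned in mitochondria is stored in droplets whose coat proteins follow the nuclear receptor PPARG. The liver also holds resident macrophages (Kupffer cells), fenestrated endothelium and stellate cells, and all of its cells answer interferons with antiviral and antimicrobial proteins. In RNA of whole liver, fewer cells of a type and less RNA per cell cannot be told apart.

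Levels are given as CPM, reads per M reads after scaling for library composition, and a fold change is the log2 of NZO over strain-129 with its standard error (SE). A gene is described as called, higher or lower, where its adjusted p was under 0.05 in edgeR's quasi-likelihood test with Benjamini-Hochberg adjustment over all 16165 genes tested. Library depth ran from 22.4 to 69.2 M reads in NZO and from 23.3 to 40.3 M reads in strain-129. The deposited table held 18754 genes, and a gene at 1 CPM had about 1 read for each M reads of depth. The summed level of 10 hepatocyte markers ran from 68976 to 129233 CPM in NZO and from 90691 to 125921 CPM in strain-129, and that of 8 skeletal muscle markers from 0.805 to 59.7 CPM in NZO and from 0.634 to 122 CPM in strain-129.

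Before the comparison, some features of the libraries have to be given. The first is NZO 8, which stood apart: its median correlation with the other NZO libraries was 0.932, against 0.961 to 0.977 for each other library with its own strain. In it, 3037 genes (18.8% of those tested) lay at least 2-fold from the median of NZO, against 570 to 1633 genes in the other 15 libraries. The second is Xist, the long RNA that coats a silenced X. Libraries 1 to 4 of each strain had 894 to 1421 CPM of Xist and the other 4 of each strain had 0.193 to 3.07, so each strain held 4 high-Xist and 4 low-Xist libraries, and NZO 8 was a low-Xist library. Results are therefore given with and without NZO 8 and, where it matters, within the high-Xist and within the low-Xist libraries.

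Between the strains, 5474 genes were called, 33.9% of those tested, with 3066 higher in NZO (19.0%) and 2408 lower (14.9%). Of these, 1996 differed by at least 2-fold, 1440 higher in NZO (8.91%) and 556 lower (3.44%), together 12.3% of the genes tested. The 8 NZO libraries lay entirely above the 8 of strain-129 for 656 genes (4.06%) and entirely below for 700 (4.33%), together 8.39%. Without NZO 8, 5055 genes were called (31.3%), 2519 higher (15.6%) and 2536 lower (15.7%), and 4628 of the 5474 genes were called again. Of the called genes, 56.0% were higher in NZO with that library and 49.8% without it. On the autosomes the share of genes called ran from 28.7% on chromosome 5 to 39.1% on chromosome 15.

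**Figure D1:**
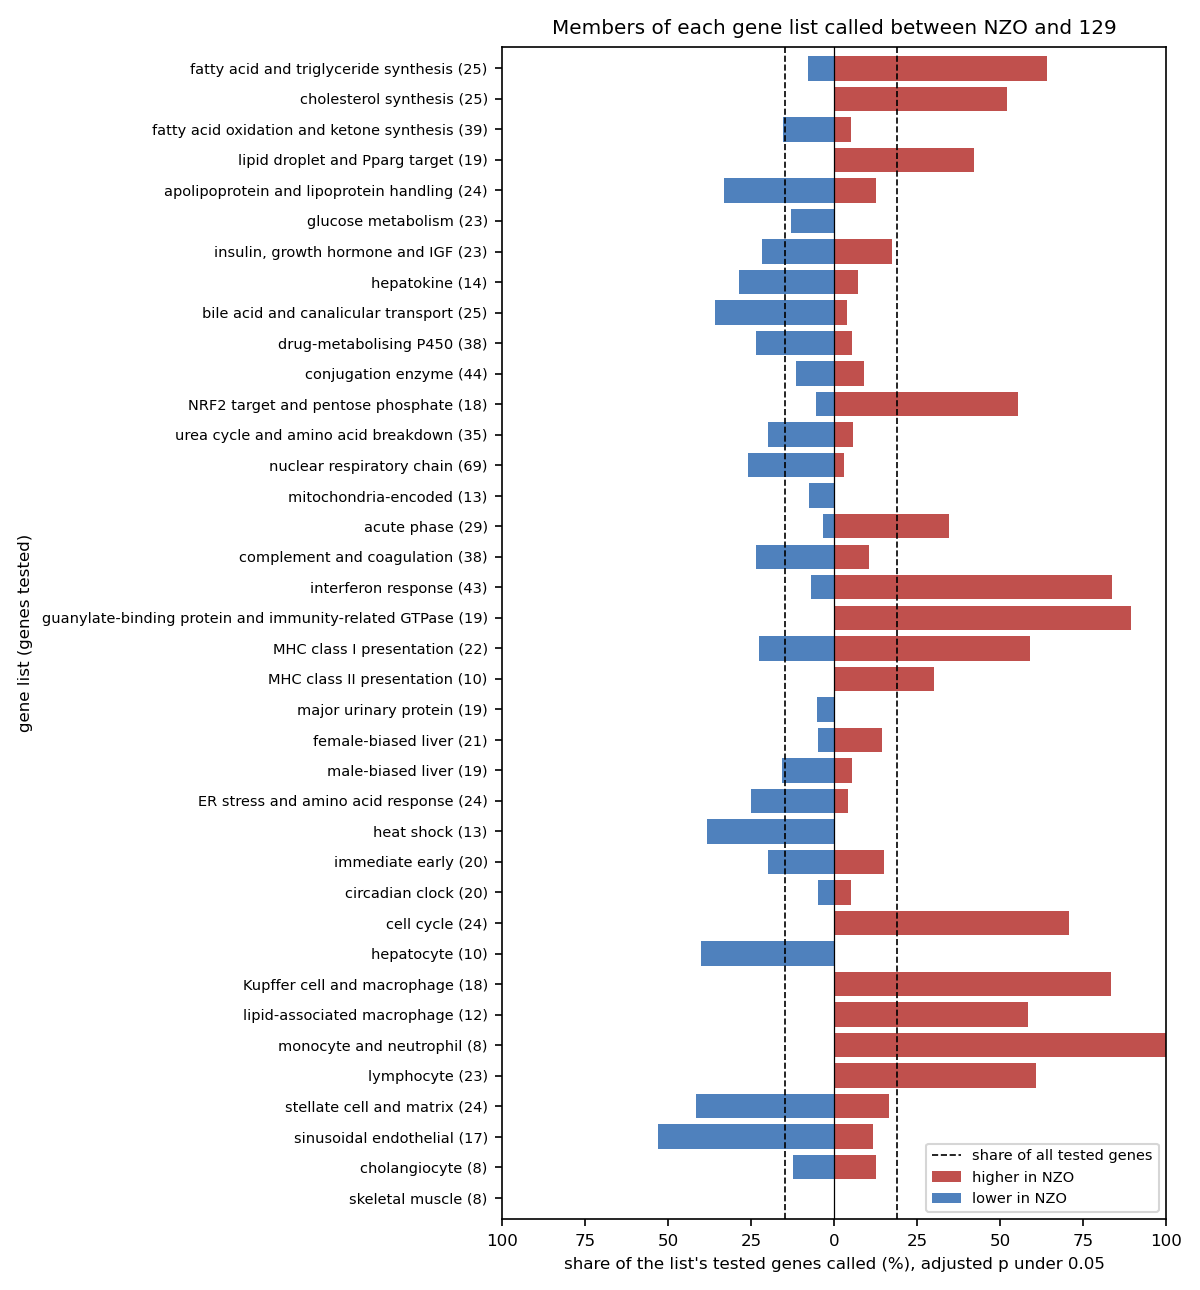
For each gene list with at least 8 genes tested, the share of its genes called higher (right) or lower (left) in NZO than in strain-129, in percent, from 8 libraries a strain, with the number of genes tested in brackets. Dashed lines mark the shares over all genes tested, 19.0% higher and 14.9% lower, and interferon, lipid synthesis and macrophage lists reach well to the right of theirs.

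Genes of fatty acid and triglyceride synthesis were mostly higher in NZO. Of 25 tested, 16 were higher and 2 lower in NZO, against 19.0% and 14.9% of all genes. The list's median log2 fold change was 1.36, against 0.01 over all genes tested. Fasn, the fatty acid synthase, ran from 147 to 5764 CPM in NZO (median 3625) and from 219 to 1112 CPM in strain-129 (median 464) (log2 fold change 2.48 ± 0.45, adjusted p = 1.75e-05). The ranges overlapped, because NZO 8 at 147 CPM lay below all libraries of strain-129 and NZO 6 at 426 CPM lay within them, while NZO 1, 2, 3, 4 and 7 lay above every library of strain-129. Elovl6, which lengthens palmitate, ran from 52.3 to 1349.9 CPM in NZO (median 775) and from 34.5 to 164 CPM in strain-129 (median 59.2) (log2 fold change 3.12 ± 0.54, adjusted p = 5.94e-06). Pnpla3, a lipid droplet acyltransferase and lipase, had the largest fold change of the 4 members named by p, with 1.11 to 297 CPM (median 101) in NZO and 0.380 to 11.9 CPM (median 0.806) in strain-129 (log2 fold change 5.25 ± 0.92, adjusted p = 7.67e-06). Scd2, a stearoyl-CoA desaturase, ran from 5.44 to 57.2 CPM in NZO (median 25.5) and from 7.24 to 14 CPM in strain-129 (median 8.30) (log2 fold change 1.55 ± 0.26, adjusted p = 3.44e-06).

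Within NZO these genes varied widely. The summed level of the list was 3005 CPM in the library NZO 8. The other low-Xist libraries held 17381 (NZO 6), 28172 (NZO 5) and 62848 CPM (NZO 7). The sum ran from 46040.5 to 67255 CPM in the high-Xist libraries. In strain-129 it ran from 6098 to 19671 CPM. Leaving out NZO 8, the library with the lowest sum, left 16 genes higher and 1 lower, and the log2 fold change of Fasn was then 2.65. Within the high-Xist libraries 16 genes were higher, and within the low-Xist libraries 10, or 14 when NZO 8 was also left out. Over all genes tested, 12.8% were higher within the high-Xist libraries, 16.9% within the low-Xist libraries and 11.9% there without NZO 8. Scd2 was the 1 member of the list whose change differed between the classes, against 1.05% of all genes: it was 2.28 in the high-Xist and 0.25 in the low-Xist libraries, with an adjusted p of 0.00132 in edgeR's test of the difference and 1.76e-05 without NZO 8.

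**Figure D2:**
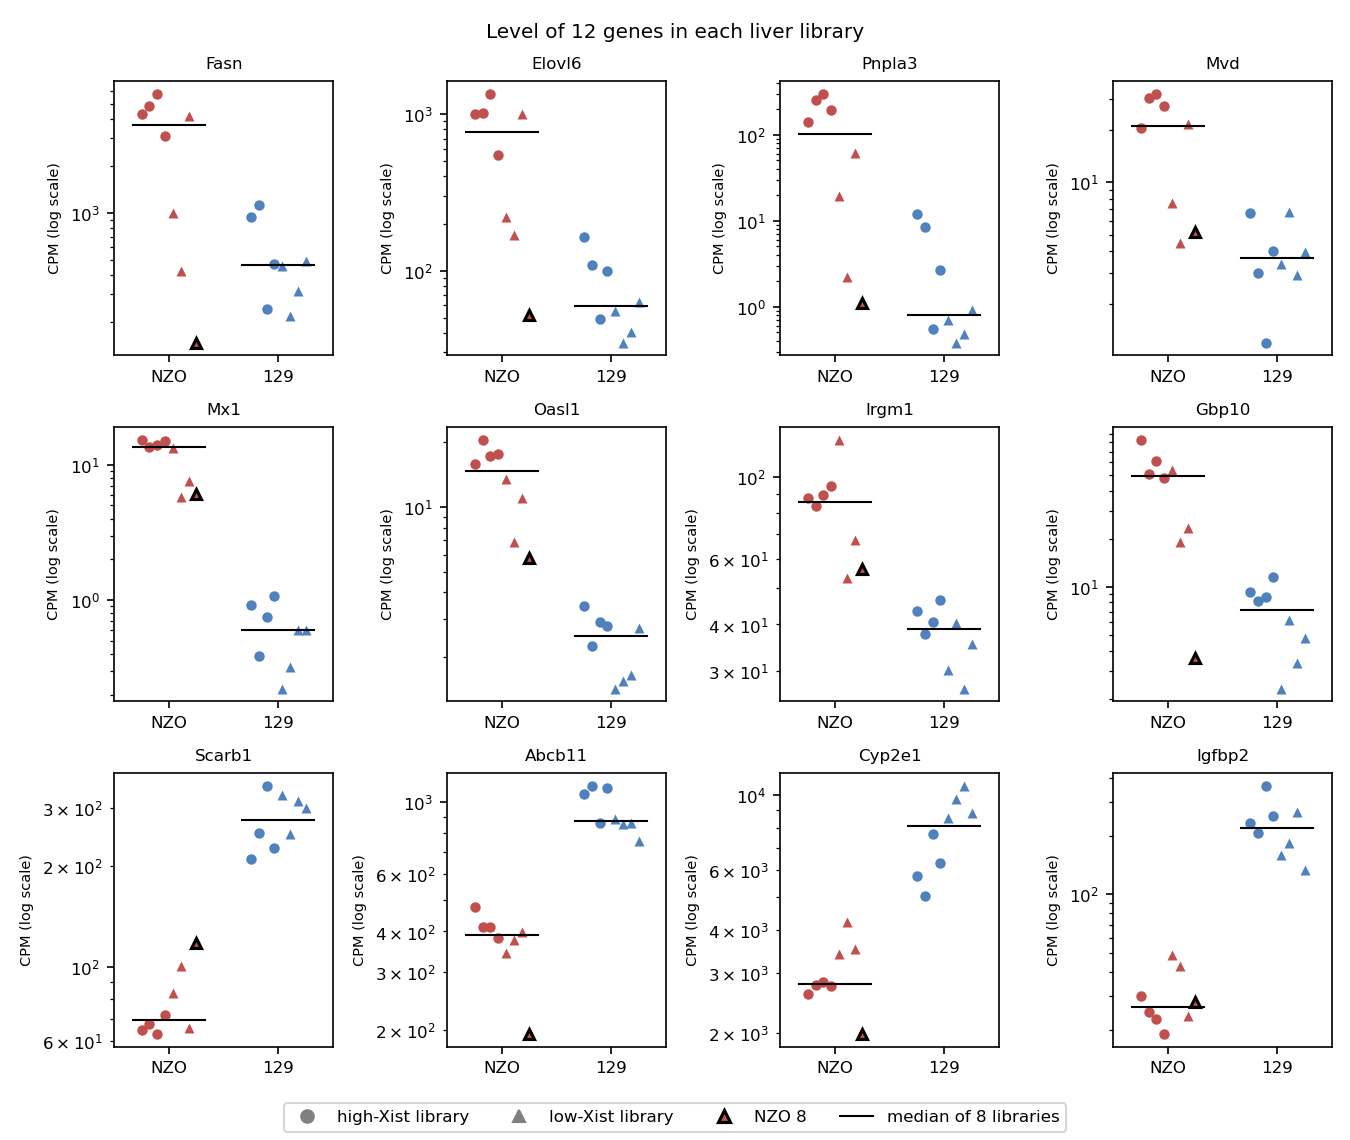
Level of 12 genes in each of the 16 libraries, in CPM on a log scale, with NZO in red, strain-129 in blue, circles for high-Xist and triangles for low-Xist libraries, NZO 8 outlined and the median of 8 as a line. Fasn, Elovl6 and Pnpla3 spread over more than 10-fold within NZO, whereas Mx1, Oasl1, Irgm1, Scarb1, Abcb11, Cyp2e1 and Igfbp2 separate the strains without overlap.

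Cholesterol synthesis followed the same direction. Of 25 genes tested, 13 were higher in NZO and 0 lower (0 at an unadjusted p under 0.05 in the same edgeR fit and 0 by DESeq2), with a median log2 fold change of 0.68. Mvd, a decarboxylase of the mevalonate pathway, ran from 4.49 to 32 CPM in NZO (median 20.9) and from 1.20 to 6.75 CPM in strain-129 (median 3.69) (log2 fold change 2.22 ± 0.47, adjusted p = 0.00015). Lss, which closes the sterol rings, was called at 1.15 ± 0.29, and Acat2, which makes acetoacetyl-CoA, at 0.97 ± 0.26. Within the high-Xist libraries 19 genes were higher, and 0 within the low-Xist libraries, with or without NZO 8. In edgeR's test of the difference between the classes, 0 genes of the list passed at an adjusted p under 0.05.

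Among lipid droplet genes and PPARG targets, 8 of 19 were higher in NZO and 0 lower (0 at an unadjusted p under 0.05 in the same edgeR fit and 0 by DESeq2), and as many were higher without NZO 8. In a fit of the 16 libraries alone 9 were higher and 2 lower. Mogat1, a monoacylglycerol acyltransferase that this list shares with the synthesis list, ran from 1.45 to 23.5 CPM in NZO (median 15.6) and from 1.19 to 4.19 CPM in strain-129 (median 1.88) (log2 fold change 2.78 ± 0.56, adjusted p = 8.52e-05). Cidec, which fuses droplets, ran from 0.632 to 23 CPM in NZO (median 6.21) and from 0.411 to 1.29 CPM in strain-129 (median 0.774) (log2 fold change 3.39 ± 0.75, adjusted p = 0.000295). It was highest in NZO 7 and NZO 5. Fabp4, a fatty acid carrier of fat cells and macrophages, ran from 8.91 to 16.7 CPM in NZO (median 11.7) and from 4.90 to 7.57 CPM in strain-129 (median 7.05), without overlap (log2 fold change 0.85 ± 0.19, adjusted p = 0.00036). Hilpda, which blocks droplet lipolysis, was called at 1.13 ± 0.27. Of 3 adipocyte markers tested, 1 was higher, 1 lower and 1 not called. Cfd, the fat cell protease adipsin, was 6.70 CPM in NZO 5, 0.812 in NZO 7, the next highest, and at most 0.104 in strain-129, and its call ended without NZO 5. Adrb3, the beta-3 adrenergic receptor, was lower, from 0 to 0.129 CPM in NZO (median 0.0484) and from 0.247 to 1.60 CPM in strain-129 (median 0.674) (log2 fold change -3.98 ± 0.64, adjusted p = 1.96e-06). Car3, a carbonic anhydrase that liver also expresses, was not called, from 124 to 1952 CPM in NZO (median 1546) and from 589.5 to 2631 CPM in strain-129 (median 1439) (log2 fold change -0.19 ± 0.61, adjusted p = 0.85). The sum of the 3 markers, nearly all of it Car3, was 1551 CPM in NZO 5 and 1549 in NZO 7, beside a median of 1550.2 in NZO. The part of fat cell RNA in the high Cidec of NZO 5 and NZO 7 was not tested. Adipoq, Lep, Plin1 and Retn were not analysed here.

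NRF2 targets and the pentose phosphate enzymes, which supply NADPH for lipid synthesis and for antioxidant defence, were higher for 10 of 18 and lower for 1. These were 55.6% and 5.56% of the list, against 19.0% and 14.9% of all genes. Without NZO 8, 10 were again higher and the lower call was lost. Within the high-Xist libraries 6 were higher, against 12.8% of all genes. Within the low-Xist libraries 11 were, with or without NZO 8, against 16.9% and 11.9% of all genes. Nfe2l2, which encodes NRF2 itself, ran from 65.8 to 124 CPM in NZO (median 89.8) and from 49.5 to 65.5 CPM in strain-129 (median 57.3), without overlap (log2 fold change 0.66 ± 0.12, adjusted p = 9.47e-06). Txnrd1, a thioredoxin reductase, was called at 0.75 ± 0.12, Tkt, the transketolase, at 0.84 ± 0.17 and G6pdx, which opens the pentose phosphate path, at 1.63 ± 0.31. G6pdx was highest in NZO 8 (42.5 CPM), where the fatty acid genes were lowest, and was 1.24 (adjusted p = 0.000701) without NZO 8.

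Few of the genes that burn fat were called. Of 39 fatty acid oxidation and ketone genes 2 were higher and 6 lower, near or below the shares of all genes, and, without NZO 8, 4 were higher and 5 lower. The balance turned with the libraries and the fit. In the high-Xist class 2 were higher and 2 lower, within the low-Xist libraries 6 and 4, or 7 and 1 there without NZO 8. With Xist as a covariate the counts were 7 and 6, with a replicate block 4 and 6, and in the 16 libraries alone 5 and 8. The medium-chain dehydrogenase gene Acadm ran from 223 to 397 CPM in NZO (median 345) and from 444 to 597 CPM in strain-129 (median 482) and did not overlap (log2 fold change -0.60 ± 0.16, adjusted p = 0.00307). Of 69 nuclear respiratory chain genes 18 were lower (26.1%, against 14.9% of all genes) and 2 higher (2.90%, against 19.0%). The changes were small, with a median of -0.13. Cox6b1, a subunit of complex IV, ran from 78.5 to 113 CPM in NZO (median 105) and from 133 to 156 CPM in strain-129 (median 145) (log2 fold change -0.51 ± 0.072, adjusted p = 1.11e-07). Ndufc2, of complex I, was called at -0.51 ± 0.069 and Ndufs7, also of complex I, at -0.46 ± 0.066. Within the high-Xist libraries 5 of the 69 were lower, and within the low-Xist libraries 16 with NZO 8 and 5 without it. Over all genes 10.9%, 11.6% and 9.68% were lower in these comparisons, so the excess of lower genes was not seen within the high-Xist libraries. Nor was it seen within the low-Xist libraries without NZO 8. Of 13 genes of the mitochondrial genome, mt-Nd2 alone was called and ran from 1940.1 to 3356 CPM in NZO (median 2369) and from 2755 to 4291 CPM in strain-129 (median 3421) (log2 fold change -0.52 ± 0.12, adjusted p = 0.000366).

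Of 24 lipoprotein genes 8 were lower (33.3%, against 14.9% of all genes) and 3 higher (12.5%, against 19.0%). Scarb1, the HDL receptor, ran from 62.9 to 118 CPM in NZO (median 69.6) and from 211 to 349 CPM in strain-129 (median 275), so that every NZO library lay below every library of strain-129 (log2 fold change -1.81 ± 0.17, adjusted p = 6.52e-13). Apoc3, which slows triglyceride clearance, ran from 337 to 715 CPM in NZO (median 664) and from 900.1 to 1104 CPM in strain-129 (median 988) (log2 fold change -0.71 ± 0.12, adjusted p = 3.37e-06). Apoa1, the main protein of HDL, was called at -0.65 ± 0.15 with overlapping ranges, and Angptl4, a lipoprotein lipase inhibitor, at -0.93 ± 0.19 without overlap. Abcg1, a sterol exporter known as a candidate gene for obesity in NZO, ran from 6.75 to 19.1 CPM in NZO (median 10.8) and from 6.12 to 10.6 CPM in strain-129 (median 7.12) (log2 fold change 0.57 ± 0.17, adjusted p = 0.00558; 0.41 (adjusted p = 0.0429) without NZO 8).

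Glucose metabolism differed in few genes, with 3 of 23 lower, near the share of all genes lower (14.9%). Higher were 0 (1 at an unadjusted p under 0.05 in the same edgeR fit and 0 by DESeq2), against 19.0% of all genes. The counts moved with the fit and the libraries. With a replicate block 1 was lower and 0 higher, and within the high-Xist libraries 2 and 0. Within the low-Xist libraries 4 were lower and 2 higher, or 1 and 0 there without NZO 8. Slc37a4, the glucose-6-phosphate transporter of the endoplasmic reticulum, ran from 84.3 to 149 CPM in NZO (median 99.6) and from 99.4 to 236 CPM in strain-129 (median 152) (log2 fold change -0.49 ± 0.15, adjusted p = 0.00973).

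In the insulin, growth hormone and IGF list 4 of 23 genes were higher (17.4%) and 5 lower (21.7%). Over all genes tested the shares were 19.0% and 14.9%. Without NZO 1, NZO 7 or strain-129 1, 3 of the list were lower. Igfbp2, a circulating IGF-binding protein that rises with leptin action, was among the 12 largest decreases of the whole comparison: it ran from 19 to 49 CPM in NZO (median 26.4) and from 134 to 364 CPM in strain-129 (median 220.2) (log2 fold change -2.91 ± 0.25, adjusted p = 6.4e-14). Against the mean of the other 6 strains its log2 change was -3.29 in NZO and -0.39 in strain-129. The NZO level was the one far from the other 6. For Igfbp3, the main carrier of IGF1 in serum, 16.4 to 20.7 CPM (median 17.6) in NZO stood against 40.7 to 52 CPM (median 46.9) in strain-129 (log2 fold change -1.39 ± 0.20, adjusted p = 1.55e-07). Here the changes against the other 6 strains were 0.064 in NZO and 1.46 in strain-129, and strain-129 was the one that stood apart. Both comparisons share the same 6 strains. Of the hepatokines, 4 of 14 were lower (28.6%) and 1 higher (7.14%). Angptl6, a secreted factor that opposes obesity in mice, ran from 2.94 to 4.75 CPM in NZO (median 4.39) and from 7.68 to 10.7 CPM in strain-129 (median 8.76) (log2 fold change -1.09 ± 0.18, adjusted p = 3.77e-06).

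Bile acid genes were lower in NZO for 9 of 25 (36%, against 14.9% of all genes) and higher for 1 (4%, against 19.0%). Their median was -0.49, and without NZO 8 the counts were 8 lower and 1 higher. Within the high-Xist libraries 6 were lower, and within the low-Xist libraries 10, or 6 there without NZO 8. Over all genes 10.9%, 11.6% and 9.68% were lower in these comparisons. Abcb11, the bile salt export pump, ran from 194 to 476 CPM in NZO (median 391) and from 757 to 1120.0 CPM in strain-129 (median 873) (log2 fold change -1.32 ± 0.23, adjusted p = 7.81e-06). Acox2, which shortens the bile acid side chain, ran from 100.5 to 168 CPM in NZO (median 114) and from 207 to 412 CPM in strain-129 (median 299) (log2 fold change -1.32 ± 0.14, adjusted p = 3.29e-11). Cyp27a1, the enzyme that starts the acidic synthesis pathway, was called at -1.03 ± 0.23 and Hsd3b7, a later step, at -0.56 ± 0.14. None of these 4 genes, which were named by their small p, overlapped between the strains. Of the 25 genes 5 were lower without overlap, against 4.33% of all genes tested. Cyp39a1, a 24-hydroxycholesterol hydroxylase, was nearly absent from NZO, with 0.0459 to 0.917 CPM (median 0.398) against 2.28 to 49 CPM (median 22.3) in strain-129 (log2 fold change -5.63 ± 0.93, adjusted p = 2.95e-06). Cyp7b1, an oxysterol hydroxylase of the same pathway that is higher in male liver, ran from 10.3 to 79.9 CPM in NZO (median 15.4) and from 17.6 to 683 CPM in strain-129 (median 164) (log2 fold change -2.96 ± 0.74, adjusted p = 0.00128).

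Of the drug-metabolising cytochromes P450, 9 of 38 were lower (23.7%, against 14.9% of all genes) and 2 higher (5.26%, against 19.0%). The balance changed within the classes. By class, the high-Xist libraries had 9 lower and 6 higher members, and within the low-Xist libraries 10 were lower and 8 higher, or 9 and 10 without NZO 8. The count of higher members was 6 with a replicate block and 7 with Xist as a covariate. The median log2 fold change was -0.10 pooled and 0.28 in the low-Xist libraries without NZO 8, and 5 members passed the test of the difference between the classes. In edgeR's test without NZO 8, Cyp2b13 (adjusted p = 0.0921), Cyp3a41b (0.0512) and Cyp2c29 (0.05004) no longer passed. Cyp3a41a still did (adjusted p = 0.00925 in edgeR). Cyp2e1, which oxidises ethanol and small solvents, ran from 1975 to 4224 CPM in NZO (median 2787) and from 5048 to 10655 CPM in strain-129 (median 8122) (log2 fold change -1.38 ± 0.20, adjusted p = 2.84e-07). For Cyp2c44 the range was 15.4 to 37.5 CPM (median 32.6) in NZO and 173 to 341 CPM (median 253) in strain-129 (log2 fold change -3.03 ± 0.23, adjusted p = 2.2e-16). Cyp2d10 was called at -1.13 ± 0.20, and Cyp2c50 at -1.92 ± 0.37. The 2 members higher in the pooled comparison were Cyp2b9 and Cyp2b13, near-identical genes of the female-biased set whose reads could have been split between them. Cyp2b9 was 591 to 727 CPM in the high-Xist and 10.1 to 206 CPM in the low-Xist libraries of NZO, and 0 to 2.43 CPM and 0.106 to 1.87 CPM in those of strain-129 (log2 fold change 8.97 ± 1.79, adjusted p = 7.05e-05). Cyp2b13 was 196 to 265 CPM in the high-Xist and 0.0316 to 3.48 CPM in the low-Xist libraries of NZO, and 0 to 0.725 CPM and 0 to 0.321 CPM in those of strain-129 (log2 fold change 9.57 ± 1.81, adjusted p = 3.26e-05). Against the other 6 strains, whose means for Cyp2b9 ran from 51.9 to 489 CPM, the log2 changes of Cyp2b9 were 1.07 in NZO and -7.90 in strain-129. Of 44 conjugation enzymes 4 were higher (9.09%) and 5 lower (11.4%), against 19.0% and 14.9% of all genes, and 6 and 5 without NZO 8. Among the glutathione transferases, a family of similar copies, Gstm3 ran from 0.0948 to 1.19 CPM in NZO (median 0.835) and from 15.9 to 35.9 CPM in strain-129 (median 22) (log2 fold change -4.95 ± 0.68, adjusted p = 4.42e-08). Gstm2 was called at -2.73 ± 0.30 and Gstm6 at -2.58 ± 0.41, and all 3 were lower in NZO without overlap. Of the 44 conjugation enzymes 4 were lower without overlap, against 4.33% of all genes tested. Akr1c12, an aldo-keto reductase, ran from 1.55 to 2.90 CPM in NZO (median 2.28) and from 38.2 to 47 CPM in strain-129 (median 42.7) (log2 fold change -4.23 ± 0.16, adjusted p = 1.15e-29). Akr1c18, a steroid reductase of the same family, went the other way, with 9.26 to 119.5 CPM (median 87.4) in NZO and 0 to 0.298 CPM (median 0.0312) in strain-129 (log2 fold change 10.49 ± 0.72, adjusted p = 5.99e-18).

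Interferon response genes were mostly higher in NZO. Of 43 genes 36 were higher in NZO and 3 lower, with a median log2 fold change of 1.19, and the counts were 36 and 3 without NZO 8. Among guanylate-binding proteins and immunity-related GTPases, which attack vacuoles of intracellular microbes, 17 of 19 were higher and 0 lower (0 at an unadjusted p under 0.05 in the same edgeR fit and 0 by DESeq2). Within the high-Xist libraries 35 and 13 of these were higher, and within the low-Xist libraries 33 and 17.

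Interferon-induced genes are known to carry a response element of 2 GAAA repeats before their start. The letters GAAA, 2 bases of any kind and GAAA again were searched on both strands. They were found in 13 of the 30 interferon genes and in 10 of the 11 GTPase genes that had an entry among the RefSeq promoters (GRCm38.p6, 250 bases before the start), against 3.46% of the 27025 genes with such a promoter. The lists were made of known interferon-induced genes, so this share does not bear on the difference between the strains. Some of these genes are near-copies of each other (Tgtp1 and Tgtp2, Ifit3 and Ifit3b, Oas1a and Oas1g) and share promoter sequence. The letters were also held by Ifi203 and Ifi205, which were lower in NZO, and by Stat2 and Gbp2b, which were not called. Irf7 and Oasl1, which were higher, lacked them. To show what such a promoter looks like in genes that were higher together, the 2 higher members of each list with the smallest p and a match are printed from 5′ to 3′ toward the start site, with the matches in capitals.
Oas1a, chr5:120907526-120907775, minus strand: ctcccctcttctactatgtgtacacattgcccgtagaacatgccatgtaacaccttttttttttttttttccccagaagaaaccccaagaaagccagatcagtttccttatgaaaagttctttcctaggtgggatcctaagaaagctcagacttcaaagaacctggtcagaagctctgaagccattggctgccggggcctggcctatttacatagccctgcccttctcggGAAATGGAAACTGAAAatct
Oas3, chr5:120777660-120777909, minus strand: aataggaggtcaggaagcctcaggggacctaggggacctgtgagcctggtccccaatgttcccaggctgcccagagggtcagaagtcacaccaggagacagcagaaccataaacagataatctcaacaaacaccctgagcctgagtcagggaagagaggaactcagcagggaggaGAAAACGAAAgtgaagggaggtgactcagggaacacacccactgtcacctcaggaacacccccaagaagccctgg
Irgm1, chr11:48871421-48871670, minus strand: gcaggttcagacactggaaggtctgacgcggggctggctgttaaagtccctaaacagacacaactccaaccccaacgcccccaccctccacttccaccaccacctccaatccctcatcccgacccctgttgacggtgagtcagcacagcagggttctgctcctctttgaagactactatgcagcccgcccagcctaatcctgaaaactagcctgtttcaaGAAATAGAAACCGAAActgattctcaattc
Tgtp1, chr11:48992247-48992496, minus strand: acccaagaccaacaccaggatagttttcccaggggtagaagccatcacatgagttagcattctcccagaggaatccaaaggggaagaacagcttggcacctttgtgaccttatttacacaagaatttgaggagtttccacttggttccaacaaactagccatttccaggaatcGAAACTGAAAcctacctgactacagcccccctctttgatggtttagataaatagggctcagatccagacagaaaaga
In Oas1a and Irgm1, 2 overlapping matches lie end to end near the start, as 3 GAAA repeats, while Oas3 and Tgtp1 hold 1 match each. Oas1a, which makes oligoadenylates in response to viral RNA, ran from 2.69 to 8.03 CPM in NZO (median 6.87) and from 1.28 to 3.21 CPM in strain-129 (median 1.82) (log2 fold change 1.66 ± 0.27, adjusted p = 1.65e-06). Oas3, of the same family, ran from 0.983 to 4.39 CPM in NZO (median 2.75) and from 0.218 to 0.916 CPM in strain-129 (median 0.551) (log2 fold change 2.34 ± 0.38, adjusted p = 2.54e-06). Irgm1, a GTPase, ran from 53.3 to 126 CPM in NZO (median 85.4) and from 26.9 to 46.7 CPM in strain-129 (median 38.9) (log2 fold change 1.13 ± 0.18, adjusted p = 1.38e-06). Tgtp1, another GTPase, ran from 4.06 to 47.8 CPM in NZO (median 10.4) and from 0.653 to 3.90 CPM in strain-129 (median 2.33) (log2 fold change 2.70 ± 0.56, adjusted p = 0.000126). The strains overlapped for Oas1a and not for the other 3 genes. Higher without overlap were 8 of the 43 interferon genes and 3 of the 19 GTPase genes, against 4.06% of all genes tested.

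Other members of both lists were higher as well. Oasl1, an inhibitor of IRF7 translation, ran from 5.82 to 20.6 CPM in NZO (median 14.6) and from 1.43 to 3.45 CPM in strain-129 (median 2.50) (log2 fold change 2.53 ± 0.35, adjusted p = 6.5e-08). Ifi27 ran from 29.1 to 87.7 CPM in NZO (median 73.3) and from 16.9 to 32 CPM in strain-129 (median 21.9) (log2 fold change 1.60 ± 0.20, adjusted p = 5.24e-09). Gbp10 ran from 3.60 to 83.1 CPM in NZO (median 49.4) and from 2.32 to 11.6 CPM in strain-129 (median 7.18) (log2 fold change 2.66 ± 0.42, adjusted p = 1.37e-06). NZO 8 at 3.60 CPM was the only NZO library within the range of strain-129. The call of Gbp10 was 2.82 (adjusted p = 7.43e-08) without NZO 8. Gbp6 was called at 2.34 ± 0.38. Gvin1, a large interferon-induced GTPase, had 2.59 to 9.40 CPM (median 5.60) in NZO, while 7 of the 8 libraries of strain-129 had 0 reads and strain-129 1 had 1.06 CPM. Ifi202b, a DNA-binding interferon protein known as an obesity gene of NZO, ran from 5.08 to 18 CPM in NZO (median 11.2) and from 1.41 to 3.56 CPM in strain-129 (median 1.97) (log2 fold change 2.42 ± 0.25, adjusted p = 3.15e-11).

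The 2 Mx genes, dynamin-like antiviral GTPases that are neighbours on chromosome 16, went in opposite directions. Mx1 (chr16:97447035-97462907 in GRCm38) ran from 5.80 to 15.3 CPM in NZO (median 13.4) and from 0.222 to 1.07 CPM in strain-129 (median 0.601) (log2 fold change 4.21 ± 0.43, adjusted p = 1.65e-11). Mx2 (chr16:97535308-97560900), annotated as a polymorphic pseudogene, ran from 0 to 0.0632 CPM in NZO (median 0.0137) and from 3.26 to 5.45 CPM in strain-129 (median 4.87), with 5 reads in all of NZO (log2 fold change -7.68 ± 0.65, adjusted p = 1.97e-14). Against the other 6 strains the changes were 3.36 in NZO and -0.84 in strain-129 for Mx1 and -9.17 in NZO and -1.49 in strain-129 for Mx2, so in both genes NZO lay farther from the other strains than strain-129 did.

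Antigen presentation differed by locus. Of 22 class I genes 13 were higher (59.1%) and 5 lower (22.7%) in NZO, against 19.0% and 14.9% of all genes. MHC genes are near-identical and differ between strains in sequence, so their counts are uncertain. Outside the MHC molecules themselves, Tap2, the peptide transporter, ran from 29.5 to 49 CPM in NZO (median 44.1) and from 18.4 to 26.3 CPM in strain-129 (median 21.2) (log2 fold change 0.96 ± 0.13, adjusted p = 5.88e-08). Psmb8, a subunit of the immunoproteasome, was called at 1.16 ± 0.23. H2-Ea-ps, the class II alpha chain that some mouse haplotypes lack, ran from 7.78 to 50.6 CPM in NZO (median 24.7) and from 0 to 0.170 CPM in strain-129 (median 0), with 4 reads in all of strain-129 (log2 fold change 10.31 ± 0.66, adjusted p = 4.48e-19). In all, 3 of 10 class II genes were higher (30%, against 19.0% of all genes), or 2 without NZO 8.

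How many markers of immune cells were higher in NZO depended on the list, on NZO 8 and on the Xist class. For Kupffer cells and macrophages, 15 of 18 markers were called higher and 0 lower (0 at an unadjusted p under 0.05 in the same edgeR fit and 0 by DESeq2). Their summed level ran from 420.4 to 2109 CPM in NZO and from 300.0 to 608 CPM in strain-129. NZO 8 had 2109 CPM and the next NZO library 1068. Without NZO 8, 13 markers were higher. Vsig4, a complement receptor of Kupffer cells, ran from 16.6 to 56.2 CPM in NZO (median 32.7) and from 9.07 to 18.8 CPM in strain-129 (median 12.2) (log2 fold change 1.34 ± 0.25, adjusted p = 2.71e-05). Folr2, a folate receptor of resident macrophages, ran from 6.81 to 17.3 CPM in NZO (median 11.4) and from 3.08 to 6.69 CPM in strain-129 (median 4.39) without overlap (log2 fold change 1.31 ± 0.24, adjusted p = 2.5e-05). Aif1, a macrophage actin-binding protein, was called at 1.84 ± 0.32. The counts by class were 4 markers higher within the high-Xist and 17 within the low-Xist libraries (14 without NZO 8). Whether the classes differ was tested gene by gene, and 2 of the list passed.

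Of 12 markers of lipid-associated macrophages 7 were higher, or 5 without NZO 8. The counts were 3 within the high-Xist and 7 within the low-Xist libraries, and 3 in the latter without NZO 8, where the list's median was -0.002. Clec7a, a receptor for fungal glucan annotated as a polymorphic pseudogene, ran from 4.78 to 15.5 CPM in NZO (median 11.2) and from 1.11 to 3.17 CPM in strain-129 (median 2.15) without overlap (log2 fold change 2.39 ± 0.30, adjusted p = 4.09e-09). Spp1, or osteopontin, ran from 21 to 147 CPM in NZO (median 59.4) and from 24.9 to 44.8 CPM in strain-129 (median 27.4) (log2 fold change 1.08 ± 0.24, adjusted p = 0.000369). Lgals3, a galectin, was called at 1.42 ± 0.28, which was 0.87 (adjusted p = 0.0022) without NZO 8. Lymphocyte markers were higher for 14 of 23 with NZO 8 and 8 without it, where 1 was lower, and 5 in a fit of the 16 libraries alone. Of these markers, within the high-Xist libraries 4 were higher and within the low-Xist libraries 15 (7 without NZO 8). Ptprc, the pan-leukocyte antigen CD45, ran from 13.6 to 95.2 CPM in NZO (median 26.6) and from 7.55 to 17.9 CPM in strain-129 (median 11.1) (log2 fold change 1.51 ± 0.28, adjusted p = 1.85e-05; 1.04 (adjusted p = 0.000493) without NZO 8). Ncr1, a receptor of natural killer cells, reached at most 1.17 CPM in NZO and 0.117 in strain-129. Nlrp12, an inhibitor of inflammation in myeloid cells, ran from 1.97 to 13.4 CPM in NZO (median 4.69) and from 0.234 to 1.72 CPM in strain-129 (median 0.656) (log2 fold change 3.08 ± 0.64, adjusted p = 0.000142). Both strains lay below the other 6, whose means ran from 9.74 to 47.9 CPM.

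The higher calls of acute phase genes rested largely on NZO 8, and those of monocyte and neutrophil markers did in part. Of 8 such markers all 8 were higher, and, without NZO 8, 4 were, with the list's median falling from 3.65 to 1.09. Over all genes 15.6% were higher without NZO 8. In the high-Xist class 1 was higher, and 2 were in the low-Xist class without NZO 8. The summed level was 1502 CPM in NZO 8, at most 23 in the other 7 NZO libraries and 3.87 to 10.6 in strain-129. S100a8, a calcium-binding protein of neutrophils, was 526 CPM in NZO 8, with a median of 1.40 in NZO and 0.139 in strain-129. Its log2 fold change was 8.35, and 2.33 (adjusted p = 0.00998) without NZO 8. Ltf and Ngp, proteins of neutrophil granules, were 423 and 566 CPM in NZO 8. Their log2 fold changes of 9.07 and 8.93 became 1.93 and 1.52 without it.

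Of 29 acute phase genes 10 were higher and 1 lower with NZO 8, and 2 higher and 3 lower without it. Their summed level was 111464 CPM in NZO 8, at most 32925 in the other NZO libraries and 26580.5 to 36731 in strain-129. A2m, a protease inhibitor, was 210.1 CPM in NZO 8 and at a median of 0.104 in NZO and 0.110 in strain-129, and its fold change went from 7.50 to -0.068 (adjusted p = 0.949) without NZO 8. Orm2, an orosomucoid, was 1501 CPM in NZO 8 and went from 4.08 to 0.90 (adjusted p = 0.417) without NZO 8. Serpina3m, a serpin of a family of similar copies, ran from 275 to 636 CPM in NZO (median 357) and from 35.1 to 197 CPM in strain-129 (median 109), without overlap, and was called with and without NZO 8 (log2 fold change 1.81 ± 0.36, adjusted p = 6.82e-05; 1.65 (adjusted p = 0.00033) without NZO 8).

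**Figure D3:**
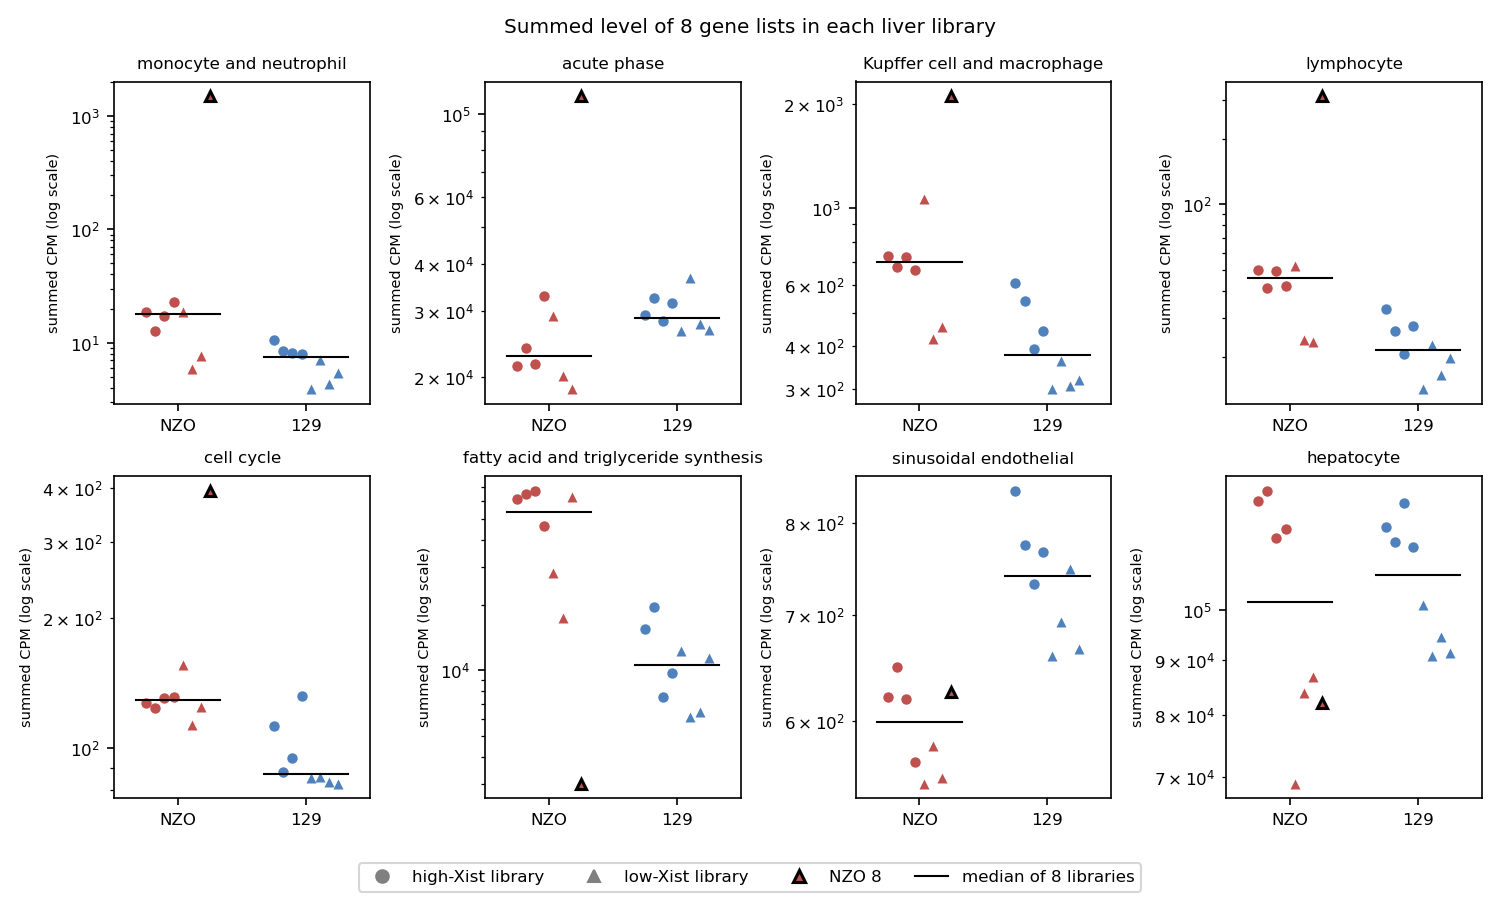
Summed level of the genes of 8 lists in each library, in CPM on a log scale, with NZO in red, strain-129 in blue, circles for high-Xist and triangles for low-Xist libraries, NZO 8 outlined and the median of 8 as a line. NZO 8 lies above every other library for neutrophil (1502 CPM), acute phase, Kupffer cell, lymphocyte and cell cycle genes and below every other for fatty acid synthesis (3005 CPM).

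Cell cycle genes were higher for 17 of 24, and for 13 without NZO 8. Mki67, a marker of dividing cells, ran from 7.40 to 97.7 CPM in NZO (median 16.4) and from 2.68 to 6.23 CPM in strain-129 (median 3.37), with NZO 8 highest and no overlap (log2 fold change 2.69 ± 0.41, adjusted p = 5.96e-07; 1.94 (adjusted p = 1.5e-05) without NZO 8). Mcm6, a replicative helicase subunit, ran from 6.59 to 26.4 CPM in NZO (median 7.74) and from 0.702 to 4.31 CPM in strain-129 (median 1.46) (log2 fold change 2.49 ± 0.35, adjusted p = 7.99e-08). Within the high-Xist libraries 6 genes were higher, and within the low-Xist libraries 18. Immune cell markers moved with this list in NZO 8, and their part in it was not tested.

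Complement and coagulation genes, made mostly by hepatocytes, were lower in NZO for 9 of 38 (23.7%) and higher for 4 (10.5%). The shares of all genes were 14.9% and 19.0%. Without NZO 8 the counts were 14 lower and 2 higher. Masp2, the protease that starts the lectin pathway, ran from 90.8 to 141 CPM in NZO (median 130.0) and from 208 to 230.4 CPM in strain-129 (median 222) (log2 fold change -0.80 ± 0.099, adjusted p = 3.23e-09). F11, coagulation factor XI, ran from 34.8 to 53.8 CPM in NZO (median 43.1) and from 74.3 to 128.7 CPM in strain-129 (median 94.6) (log2 fold change -1.15 ± 0.19, adjusted p = 3.78e-06). Neither gene overlapped. Of 10 hepatocyte markers 4 were lower (40%, against 14.9% of all genes), or 5 without NZO 8. Cps1, the entry enzyme of the urea cycle, called at -0.55 ± 0.19, was among the 4. Within the high-Xist libraries 2 of the 10 were lower, and 2 within the low-Xist libraries. Of 24 stellate cell and matrix genes 10 were lower (41.7%) and 4 higher (16.7%), against 14.9% and 19.0% of all genes. Without NZO 8, 11 were lower and 1 higher. Reln, a stellate cell glycoprotein, ran from 47.6 to 86.7 CPM in NZO (median 78.9) and from 115 to 184 CPM in strain-129 (median 155) (log2 fold change -1.03 ± 0.17, adjusted p = 1.78e-06). Bgn, a matrix proteoglycan, was called at -0.68 ± 0.088 and Ecm1, which holds TGF-beta latent, at -0.78 ± 0.12.

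Sinusoidal endothelial genes were lower for 9 of 17 and higher for 2 (8 and 1 without NZO 8). These were 52.9% and 11.8% of the list, against 14.9% and 19.0% of all genes. Their summed level ran from 548 to 649 CPM in NZO and from 659 to 838 CPM in strain-129. Stab2, a hyaluronan scavenger receptor, ran from 78.5 to 116 CPM in NZO (median 87.1) and from 133 to 167 CPM in strain-129 (median 159) (log2 fold change -0.79 ± 0.12, adjusted p = 4.01e-07). Stab1, its relative, was called at -0.47 ± 0.074, and Eng, a TGF-beta coreceptor, at -0.41 ± 0.08. Wnt2, which endothelium near the central vein releases to hepatocytes, ran from 1.07 to 3.59 CPM in NZO (median 2.22) and from 3.48 to 5.67 CPM in strain-129 (median 4.58) (adjusted p = 5.04e-05). Of 13 heat shock genes 5 were lower (38.5%, against 14.9% of all genes) and 8 not called. Within the low-Xist libraries without NZO 8, 1 was lower. Of 24 genes of endoplasmic reticulum stress 6 were lower (25%, against 14.9% of all genes) and 1 higher, and 2 were lower without NZO 1. Herpud1, of the degradation complex of the endoplasmic reticulum, ran from 128 to 282 CPM in NZO (median 206) and from 163 to 573 CPM in strain-129 (median 362) (log2 fold change -0.78 ± 0.24, adjusted p = 0.00955).

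Some of the largest changes were of single genes that one strain hardly expressed. Trim5 (chr7:104263386-104288094), a member of a family of retroviral restriction factors with several similar copies, ran from 11.2 to 15.9 CPM in NZO, with 1 read in all of strain-129. Dct, a melanin enzyme, ran from 7.24 to 22.9 CPM in NZO (median 12.4) and from 0 to 0.128 CPM in strain-129 (median 0.0372) (log2 fold change 8.07 ± 0.63, adjusted p = 9.64e-16). Hba-a1, an alpha globin with a near-identical copy, ran from 46.9 to 174 CPM in NZO (median 97.4) and from 0.0967 to 1.02 CPM in strain-129 (median 0.504) (log2 fold change 7.50 ± 0.43, adjusted p = 2.7e-21). Hbb-bt, a beta globin, was called at 1.35 ± 0.28. Hist2h2aa2, a histone with an identical copy, ran from 11.8 to 35.1 CPM in NZO (median 30.9) and from 0 to 0.341 CPM in strain-129 (median 0). Tpm3-rs7, a tropomyosin-related sequence, ran from 16.4 to 34.7 CPM in NZO (median 22.2) and from 0 to 0.222 CPM in strain-129 (median 0.0292). In the other direction, Igsf23 (chr7:19937305-19950756), an immunoglobulin-domain protein, ran from 0 to 0.193 CPM in NZO (median 0.0158) and from 6.27 to 18.6 CPM in strain-129 (median 10.8), with 12 reads in all of NZO (log2 fold change -7.81 ± 0.44, adjusted p = 2.17e-21). Asic5, a bile acid-sensitive ion channel, ran from 1.39 to 4.85 CPM in NZO (median 3.08) and from 14.1 to 76.3 CPM in strain-129 (median 33.2) (log2 fold change -3.51 ± 0.38, adjusted p = 9.58e-11). Pcp4l1 was called at -3.11 ± 0.44.

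For the genes with known differences between these strains, 4 of 18 were higher and 7 lower. The list was drawn up from such reports, and its changes are no independent evidence. Glo1, the glyoxalase that is duplicated in several strains, ran from 174 to 295 CPM in NZO (median 281) and from 553 to 845 CPM in strain-129 (median 688) (log2 fold change -1.36 ± 0.18, adjusted p = 1.48e-08). Ctse, an aspartic protease, ran from 8.88 to 44.1 CPM in NZO (median 30.8) and from 49.3 to 122 CPM in strain-129 (median 74.5) (log2 fold change -1.50 ± 0.33, adjusted p = 0.000335). Both strains lay above the mean of the other 6 (4.63 in NZO and 6.13 in strain-129). Ceacam1, which speeds insulin clearance, ran from 165 to 187 CPM in NZO (median 182) and from 219 to 286 CPM in strain-129 (median 252) (log2 fold change -0.46 ± 0.10, adjusted p = 0.000229). Its paralog Ceacam2 was called at -1.67 ± 0.30. Of further diabetes and obesity candidates of NZO, Zfp69, a zinc finger protein, was called at -0.51 ± 0.16, and Tbc1d1, a regulator of glucose transport, at -0.39 ± 0.15, a call lost without NZO 6, NZO 7 or strain-129 1. Pctp, a phosphatidylcholine transfer protein, was 0.74 ± 0.39 (adjusted p = 0.143 in edgeR), and Lepr, the leptin receptor, was 0.088 ± 0.68 (adjusted p = 0.94). Nnt, Alad, Hc, Sult1e1 and Ren1 did not pass either (adjusted p from 0.0734 for Hc to 0.827 for Ren1 in edgeR), and Hc, complement C5, passed without NZO 8 at -0.52 (adjusted p = 0.00724 in edgeR).

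Female- and male-biased liver genes were also compared between the Xist classes. Within strain-129, 17 of 21 female-biased genes were higher in the high-Xist libraries and 17 of 19 male-biased genes lower; within NZO, 17 and 14 were. In all, 3.20% of genes were higher and 4.13% lower in the high-Xist libraries of strain-129, and 2.98% and 3.34% in those of NZO. Over all genes, the classes differed in 1184 genes within strain-129 (7.32%) and 1022 within NZO (6.32%), or 677 (4.19%) without NZO 8. Pooled over the classes, 3 male-biased genes were lower in NZO (1 without NZO 8), and 3 female-biased genes were higher in NZO and 1 lower, while within the low-Xist libraries 9 were higher and 1 lower, and 8 of the male-biased genes were lower (6 without NZO 8). Among the high-Xist libraries 5 female-biased genes were higher and 2 lower, and 2 male-biased genes were higher and 2 lower, the latter list with a median of 0.26 there and -1.50 in the low-Xist libraries. The share of all genes lower was 10.9% within the high-Xist libraries, 11.6% within the low-Xist libraries and 9.68% there without NZO 8, where 21.6% were called in all. A1bg, a plasma protein of the female-biased set, was 475 to 775 CPM in the high-Xist and 1.57 to 22.3 CPM in the low-Xist libraries of NZO, and 3.41 to 15.2 CPM and 0 to 0.380 CPM in those of strain-129. Mup20, a major urinary protein of male mice, was 3.95 to 7.98 CPM in the high-Xist and 12.1 to 109 CPM in the low-Xist libraries of NZO, and 5.11 to 9.55 CPM and 426 to 1244 CPM in those of strain-129. Its pooled call (log2 fold change -3.60 ± 1.44, adjusted p = 0.0459) was lost in 11 of the 16 fits that left out 1 library. Slco1a1, an organic anion transporter that is higher in male liver, was 3.76 to 6.80 CPM in the high-Xist and 4.77 to 275 CPM in the low-Xist libraries of NZO, and 6.55 to 173 CPM and 551 to 652 CPM in those of strain-129. Its pooled call (log2 fold change -2.29 ± 0.87, adjusted p = 0.0346) was lost in 9 of those 16 fits.

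The strain difference was called in 3824 genes within the high-Xist libraries (23.7%) and 4615 within the low-Xist libraries (28.5%). In 2187 genes both classes were called in the same direction, 57.2% of the former and 47.4% of the latter, and in 10 genes they were called in opposite directions. The difference between the 2 strain contrasts was itself called in 169 genes (1.05%). Without NZO 8 it was called in 47 (0.291%), of which 43 were among the 169. The genes named next were chosen after their values were seen, from those with the smallest p of that difference, and each was called with and without NZO 8.

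Slc22a26, an organic anion transporter, was 46.7 to 104 CPM in the high-Xist and 2.59 to 11.1 CPM in the low-Xist libraries of NZO, and 60.8 to 145 CPM and 0.127 to 0.497 CPM in those of strain-129 (difference 4.73, adjusted p = 2.38e-05 in edgeR; 0.000133 without NZO 8). Fgl1, a hepatocyte-secreted ligand of the immune checkpoint LAG3, was 716 to 1286 CPM in the high-Xist and 439 to 2219 CPM in the low-Xist libraries of NZO, and 476 to 785 CPM and 33.4 to 58 CPM in those of strain-129. The low-Xist libraries of strain-129 were thus the low group, while the low-Xist libraries of NZO were called neither higher nor lower than its high-Xist ones (adjusted p = 0.861 in edgeR). Esr1, the estrogen receptor, had the same pattern, at 45.2 to 51.9 CPM in the high-Xist and 40 to 65.3 CPM in the low-Xist libraries of NZO, and 34.4 to 49.5 CPM and 11.4 to 14.6 CPM in those of strain-129 (difference 1.76, adjusted p = 0.00382 in edgeR; 0.0153 without NZO 8). Prlr, the prolactin receptor, was 279 to 351 CPM in the high-Xist and 158 to 255 CPM in the low-Xist libraries of NZO, and 302 to 455 CPM and 73.8 to 110.1 CPM in those of strain-129. Tm6sf2, which loads fat onto lipoproteins, was 38.3 to 43.9 CPM in the high-Xist and 29.3 to 38.9 CPM in the low-Xist libraries of NZO, and 36 to 44.5 CPM and 9.52 to 21.1 CPM in those of strain-129. C6, a complement component of the male-biased set, went the other way, at 25 to 27.9 CPM in the high-Xist and 62.4 to 99.6 CPM in the low-Xist libraries of NZO, and 10.6 to 17.4 CPM and 234 to 539 CPM in those of strain-129. Enpp2, or autotaxin, which makes lysophosphatidic acid, was 44.3 to 51.2 CPM in the high-Xist and 26 to 49.7 CPM in the low-Xist libraries of NZO, and 27.7 to 43.6 CPM and 96.5 to 116 CPM in those of strain-129. In Slc22a26 and in each of the 6 genes after it, the class means lay farther apart in strain-129 than in NZO. These genes were picked with their values seen, and the 169 genes did not share that pattern. Of the 169, the high- and low-Xist libraries differed by call in 94 within NZO and in 76 within strain-129. Scd2 went the other way, with a log2 change of high- over low-Xist libraries of 1.90 in NZO and -0.13 in strain-129.

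In the high-Xist libraries Sult3a1 separated the strains. Sult3a1, a sulfotransferase of the female-biased set, was 27.9 to 39.9 CPM in the high-Xist and 0.0983 to 2.40 CPM in the low-Xist libraries of NZO, and 529 to 637 CPM and 0.0352 to 0.818 CPM in those of strain-129 (difference 6.18, adjusted p = 0.00384 in edgeR; 0.0214 without NZO 8).

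**Figure D4:**
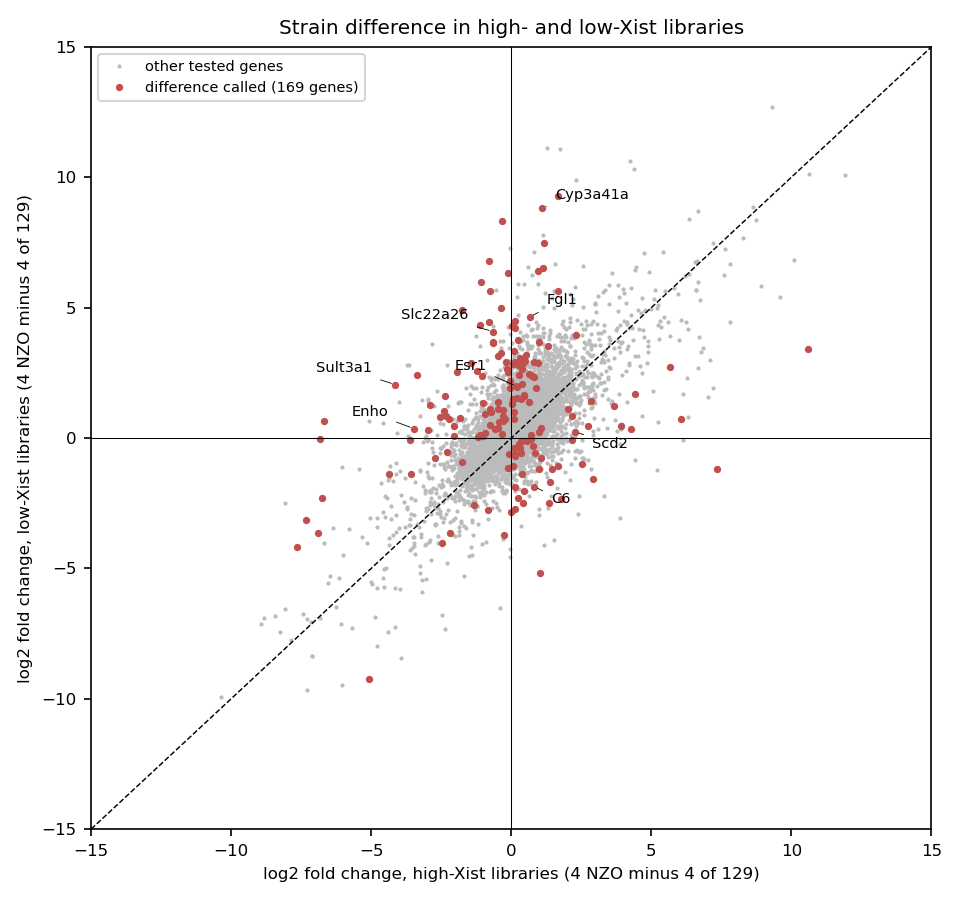
Log2 fold change of NZO over strain-129 for every gene tested, within the 4 high-Xist libraries of each strain (horizontal) and within the 4 low-Xist libraries (vertical), with the 169 genes whose change differed between the classes in red and the line of equal change dashed. Sult3a1 lies to the left, where the high-Xist and not the low-Xist libraries were lower in NZO, and Cyp3a41a, Fgl1 and Slc22a26 lie above the horizontal axis, where NZO was higher in the low-Xist libraries.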

How the data were processed

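RNA of frozen, pulverised liver was made into poly(A) libraries with spike-in RNA added, per the labels' protocols. The authors deposited estimated counts per gene (not all whole) and variance-stabilised values on a log2 scale. Per the submitters' processing notes the build was GRCm38 and DESeq2 was used, and no aligner, counter or strand setting is given in the sources used here, so overlapping and antisense genes cannot be told apart. Counts were rounded, and genes were filtered by expression (filterByExpr) and scaled by TMM in edgeR 4.0.16 (R 4.3.3). A quasi-likelihood model with strain as its term was fitted to 60 libraries, the contrast was NZO minus 129, and p-values were Benjamini-Hochberg adjusted over 16165 of 18754 genes, with a threshold of 0.05. SEs were derived as the fold change over the root of F and are rough where reads are near 0. Depth was 22.4 to 69.2 M reads, and intervals cover spread between libraries. Named genes were the 12 largest called changes each way among protein-coding genes of at least 5 CPM, up to 4 members per list and the known-difference list, and the members and lists were chosen with earlier results of these data known. The fit was tested on simulated data. Alternatives were DESeq2 1.42.0, limma 3.58.1, other scaling and filters, a replicate block, Xist as a covariate and leaving out each library; Xist classes were added after seeing the data. There was 1 column that matched no labelled sample, and it was not used. Of the 61 labelled samples 60 had a column, and B6 5 had none. Some genes that the rule names are not reported here.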

Additional observations from a re-analysis of the deposited data

Results flagged for a closer look

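In the 8 libraries of a strain, a value was set aside for a closer look where the gap to its nearest neighbour, as a share of the whole range, was above Dixon's 95% critical value for 8 samples. Of 334 such groups 54 were marked, and chance alone marks about 1 in 20. Among gene lists (mean log2 level) the shares for NZO 8 were 0.672 for fatty acid oxidation, 0.641 for the insulin and IGF list, 0.587 for conjugation enzymes, 0.746 for the respiratory chain, 0.605 for acute phase, 0.578 for complement, 0.636 for cell cycle and 0.698 for neutrophil genes.

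For single genes in NZO 8 the shares were 0.875 for Mcm6, 0.860 for Car3, 0.851 for Glo1, 0.824 for Ltf, 0.813 for A2m, 0.767 for Ngp, 0.740 for Enpp2, 0.735 for Ndufs7, 0.733 for S100a8, 0.715 for Cyp2c44, 0.701 for Cyp27a1, 0.661 for Hist2h2aa2, 0.659 for Gstm6, 0.638 for Cox6b1, 0.637 for Abcb11, 0.624 for Alad, 0.623 for Orm2, 0.619 for Mogat1, 0.604 for Mki67, 0.595 for Akr1c18, 0.592 for Ecm1, 0.576 for Gstm3, 0.573 for Acadm, 0.561 for Ifi27, 0.551 for Hc, 0.540 for Angptl6, 0.534 for Hsd3b7 and 0.529 for Gbp10. Elsewhere in NZO the shares were 0.590 for clock genes and 0.568 for Cps1 in NZO 6, 0.734 for Masp2 and 0.696 for Reln in NZO 5, 0.581 for Cyp39a1 in NZO 2, and 0.527 for the total reads of NZO 3.

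In strain-129 the shares were 0.595 for cholesterol synthesis genes and 0.588 for Lss in strain-129 3, 0.665 for heat shock genes, 0.598 for Spp1, 0.700 for Tbc1d1 and 0.581 for Txnrd1 in strain-129 7, 0.626 for Akr1c18 in strain-129 2, 0.538 for Ndufc2 in strain-129 1 and 0.556 for Scd2 in strain-129 8. A share of 1, with reads in a single library of the strain, was found for Gvin1 in strain-129 1, H2-Ea-ps in strain-129 2 and Trim5 in strain-129 7.

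The change between the strains differed between the high-Xist and low-Xist libraries in 169 genes by edgeR's test of the difference, and in 47 genes when NZO 8 was left out.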

How the results depend on the processing

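Across the planned fits (DESeq2, limma, other scaling, no filter, the 16 libraries alone, Xist as a covariate, a replicate block, Rn18s-rs5 left out) between 5153 and 6038 genes were called, against 5474. Leaving out 1 library gave 5055 to 5562 genes, 2519 to 3155 higher, 2219 to 2536 lower and 1643 to 2133 with at least a 2-fold change. With limma on the authors' variance-stabilised values 645 genes passed the 2-fold limit, against 1996. Within the low-Xist libraries 4615 genes were called, and 3488 there without NZO 8, 1924 higher and 1564 lower. The cause of that drop was not tested. The replicate block, for which same-numbered libraries of the strains are only numbered alike, called 5453 genes. The correlation of same-numbered deviations was 0.177 to 0.384 for 6 of 7 shared numbers and -0.061 for number 8, and no NZO library correlated best with its own number. Same-numbered libraries were always of the same Xist class. For number 3 the correlations with strain-129 libraries of the same class ran from 0.163 to 0.323. The highest with the other class was -0.176. A block by number thus also follows the Xist class.

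Some single genes changed direction, and the cause was not tested. Over the fits without 1 library the log2 fold change ran from -0.068 to 7.95 for A2m, from -0.32 to -0.022 for Car3, from -0.099 to 0.40 for Lepr, from -0.035 to 0.31 for Prlr and from -0.49 to 0.16 for Ren1. A2m was -0.068 without NZO 8, -0.089 with DESeq2 and -0.30 within the low-Xist libraries without NZO 8. Lepr was -0.054 without NZO 5, -0.08 without NZO 8, -0.084, -0.099, -0.087 and -0.08 without strain-129 6, 7, 8 and 9, and -0.78 within the high-Xist libraries. Ren1 was 0.16 without strain-129 6, 0.023 with the replicate block, 0.32 within the low-Xist libraries and 0.41 there without NZO 8. Prlr was -0.035, -0.0071, -0.0073 and -0.013 without strain-129 6, 7, 8 and 9 and -0.28 within the high-Xist libraries. Slc22a26, at -0.54 and not called when pooled (adjusted p = 0.805 in edgeR), was 0.69 with limma, 1.71 with the replicate block, 2.29 with Xist as a covariate, 4.08 within the low-Xist libraries and 3.52 there without NZO 8. Car3 was 0.14 with the replicate block, 0.095 with Xist as a covariate and 0.66 within the high-Xist libraries. Within the high-Xist libraries C6 was 0.81 and Enpp2 0.37. Within the low-Xist libraries, with and without NZO 8, Sult3a1 was 2.05 and 1.52. There, without NZO 8, Scd2 was -0.22 and Spp1 -0.23.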
